A study of Bos taurus with 40 samples.

Results

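The genes described here are the ubiquitin ligases that skeletal muscle uses to break down its own proteins, the FOXO transcription factors that switch them on, and a few partners of the same pathway. They were chosen by name from a list of 10 names, of which 8 had a row in the count tables of 13570 genes: FBXO32, TRIM63, FOXO3, KLF15, DDIT4, FBXO40, TRIM54 and TRIM55. FOXO1 was not analysed here, and REDD1 is an older name of DDIT4. All 8 genes passed the filter of at least 1 read in at least 1 sample and were among the 13148 genes tested. The data are RNA-seq libraries of 5 cows and 5 bulls, with longissimus dorsi muscle, abdominal fat, liver and pituitary gland taken from each animal, 40 samples in all. An animal such as cow 4 stands here for the libraries that share a sex and a replicate number, a link that was not tested. The study compared females with males within each tissue (model M1) and over the 4 tissues together (model M2). All animals were Korean cattle older than 22 months, and none of the labels used here names a treatment. A female sample therefore differs from a male sample of the same tissue, as far as the labels say, in sex and in the individual animal.

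Muscle mass is held by a balance between protein synthesis and protein breakdown. Insulin and IGF signals act through the kinase AKT, which keeps FOXO factors out of the nucleus. When this signal is low, as in fasting, disuse or under glucocorticoids, FOXO factors enter the nucleus and raise the transcription of the ligases atrogin-1 and MURF1, which mark muscle proteins for the proteasome. FBXO32 encodes atrogin-1 and TRIM63 encodes MURF1. TRIM55 and TRIM54 encode MURF2 and MURF3, relatives of MURF1 that sit on the sarcomere and on microtubules. FBXO40 is an F-box protein of muscle that targets the insulin receptor substrate IRS1. FOXO3 is a transcription factor of the pathway, KLF15 is a glucocorticoid-induced transcription factor of amino acid and lipid use, and DDIT4 is a stress- and glucocorticoid-induced inhibitor of mTOR.

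The libraries held 5173092 to 19165864 counted reads (median 10005607). Levels are given in CPM, the reads of a gene relative to the library total after TMM scaling over the 40 samples. They are not divided by gene length, so they compare samples for the same gene and not different genes. A count of 3 reads, taken as the smallest level that a sample can show, corresponds to 0.132 to 0.793 CPM on this scale, a limit that covers counting error only. The tissue labels held: the summed level of 9 skeletal muscle fibre markers was 128431 to 209437 CPM in muscle and at most 611 CPM in any sample of the other tissues. The liver library labelled bull 3 had XIST at 1401 CPM, within the range of the cow livers, and no read on the Y-linked genes. Both values go against its male label, under which it was nevertheless counted. Its expression correlated with the liver of cow 4 at r = 0.993, the highest of all liver pairs. Their counts were also the closest of the liver pairs, with a chi-square per degree of freedom of 15.8 against a median of 117. They still differed beyond sampling noise, and both were kept as separate samples. Whether both libraries came from the same animal was not tested. The fat library of bull 5 also stood apart, with 2.16 CPM on the Y-linked genes against 39.98 to 44.8 CPM in the fat of the other bulls. Leaving out both libraries changed no call on the 8 genes in any tissue comparison or in M2.

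Muscle was the leading tissue of these genes. In edgeR's quasi-likelihood test over all 40 samples, 6 of the 8 genes were significantly higher in muscle than in each of the other 3 tissues: FBXO32, TRIM63, FOXO3, FBXO40, TRIM54 and TRIM55. The same held for 13% of all genes tested. KLF15 was higher in liver than in each other tissue, as were 13.6% of all genes. DDIT4 led in no tissue, and none of the 8 led in fat or in the pituitary gland, where 11.4% and 15.5% of all genes did. The genes were put on the list as muscle genes, so their place in muscle describes the list and its degree. In bulk tissue a higher level cannot be told apart from a larger share of cells that express the gene.

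**Figure D1:**
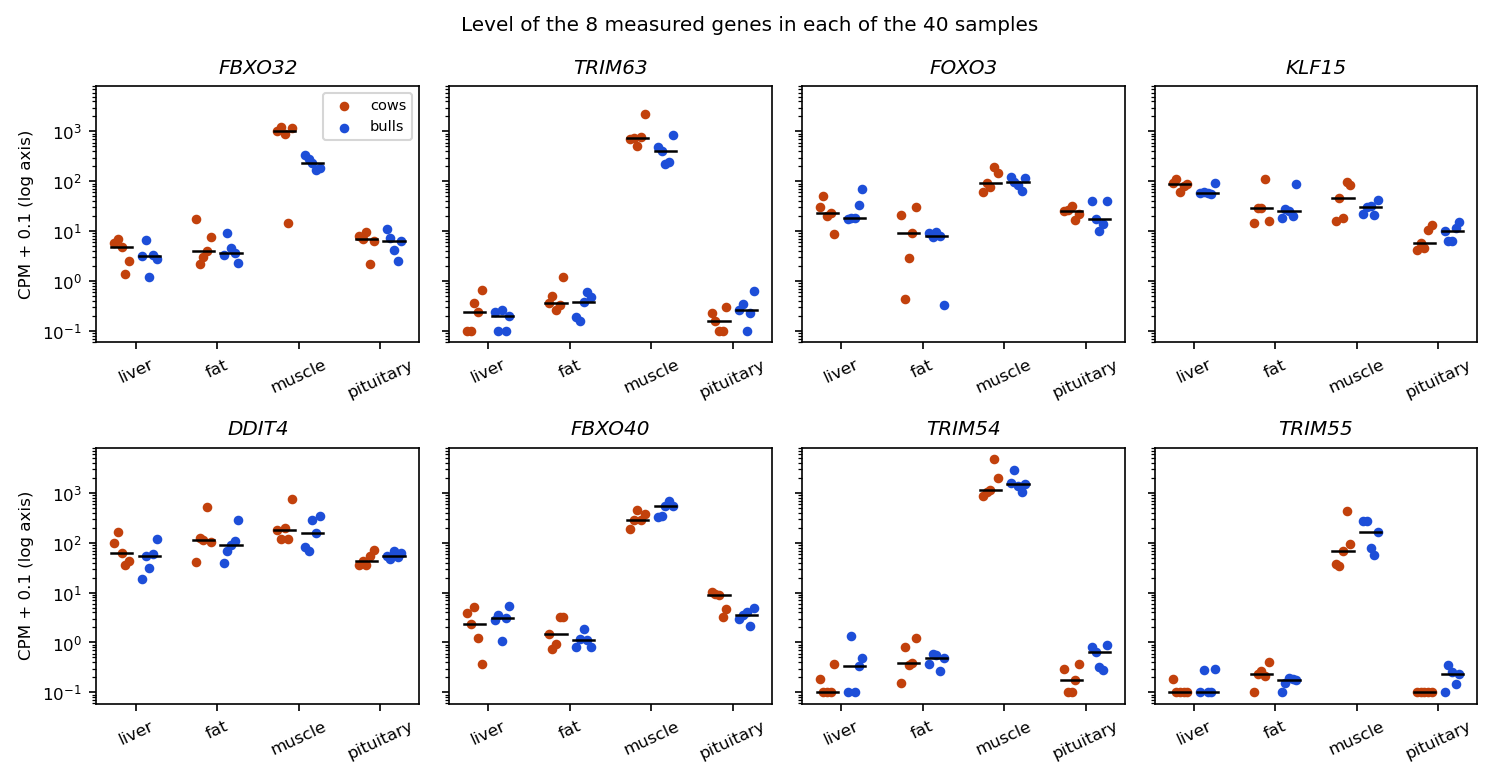
Level of each of the 8 genes in each of the 40 samples, as CPM + 0.1 on a log axis, by tissue (x axis); orange points are cows, blue points are bulls and the black lines are the medians of 5 animals. TRIM63, TRIM54 and TRIM55 stay near the bottom of the axis outside muscle, while KLF15 and DDIT4 have broad levels in liver, fat and muscle, and 1 cow has far less FBXO32 in muscle than the other 9 animals.

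The 3 MURF genes were close to absent outside muscle at this depth. TRIM63 measured 223 to 2245 CPM in the 10 muscle samples, and the highest value in the other 30 samples was 1.10 CPM, in the fat of cow 5. TRIM54 measured 852 to 4765 CPM in muscle and at most 1.25 CPM elsewhere. TRIM55 measured 34.7 to 439 CPM in muscle and at most 0.315 CPM elsewhere. In liver and pituitary gland TRIM55 had 0 to 5 reads per library. At such counts an order among liver, fat and pituitary gland could not be read, and none of the 9 differences of these 3 genes among those tissues passed the threshold. The fat of cow 5 had the highest level of each of the 3 genes among the fat samples, with 14 reads on TRIM63, 14 on TRIM54 and 4 on TRIM55, and it also had the highest summed level of the 9 muscle fibre markers in fat (161 CPM, against 17.5 to 123 CPM in the others). The part of muscle RNA in those values was not tested.

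Outside muscle both F-box genes were low, with 7 to 337 reads on FBXO32 and 2 to 159 on FBXO40 in the other 30 samples. FBXO32 averaged 553 CPM in muscle, 6.41 in the pituitary gland, 5.62 in fat and 3.71 in liver (n = 10 per tissue). The muscle level exceeded that of the pituitary gland by 6.23 on the log2 scale (SE 0.53, adjusted p = 1.04e-13 in edgeR's quasi-likelihood test). No difference among the pituitary gland, fat and liver passed the threshold, with adjusted p of 0.110 to 0.649 in the same test. FBXO40 averaged 404 CPM in muscle, 5.33 in the pituitary gland, 2.79 in liver and 1.43 in fat. All 6 of its tissue differences passed the threshold, the smallest being pituitary gland against liver at 0.87 on the log2 scale (adjusted p = 0.0270). The 10 muscle samples of FBXO40 were all above the highest other sample, 10.03 CPM in the pituitary gland of cow 1. For FBXO32 the muscle of 9 animals was above every other sample, and the muscle of cow 4 was not.

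The regulators had broader levels than the ligases. FOXO3 averaged 105 CPM in muscle, 28.8 in liver, 24.3 in the pituitary gland and 9.67 in fat. Muscle exceeded liver by 1.85 on the log2 scale (SE 0.44, adjusted p = 3.69e-04 in the quasi-likelihood test). Liver against pituitary gland did not pass the threshold (adjusted p = 0.618), and fat was below both. FOXO3 was unequal among the fat samples: the cows had 20.6, 0.325, 2.79, 8.99 and 29.9 CPM and the bulls had 9.05, 7.48, 9.52, 7.83 and 0.232 CPM. The fat of cow 2 had 5 reads and that of bull 5 had 3, so both were near the smallest level that could be seen.

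KLF15 averaged 76.0 CPM in liver, 40.6 in muscle, 37.9 in fat and 8.69 in the pituitary gland. Liver exceeded muscle by 0.92 on the log2 scale (SE 0.34, adjusted p = 0.0179 in the quasi-likelihood test) and fat by 0.99 (SE 0.34, adjusted p = 0.0104). Muscle against fat did not pass the threshold (adjusted p = 0.881). The difference between liver and fat fell to 0.36 (adjusted p = 0.296) when libraries were scaled by size alone, a scaling that moved the median difference of all genes between liver and fat from -0.13 to -0.82, so the first place of liver depends on the scaling. DDIT4 averaged 233 CPM in muscle, 151 in fat, 68.5 in liver and 52.5 in the pituitary gland. Muscle against fat did not pass the threshold (0.63 on the log2 scale, adjusted p = 0.174 in the quasi-likelihood test), nor did liver against pituitary gland (adjusted p = 0.472). Without cow 4, whose fat had the highest DDIT4 level of that tissue, muscle exceeded fat by 1.12 (adjusted p = 0.0135), and DDIT4 became the 7th gene led by muscle.

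The same samples of fat were high for KLF15 and for DDIT4. KLF15 in fat was 14.5, 29.0, 28.6, 113 and 15.8 CPM in cows 1 to 5 and 18.5, 28.1, 24.99, 20.2 and 86.3 CPM in bulls 1 to 5. DDIT4 in fat was 41.7, 127, 113, 525 and 106 CPM in the cows and 39.99, 69.6, 89.0, 108 and 290 CPM in the bulls. Cow 4 and bull 5 had the highest and second highest level of both genes, in opposite sexes, also with libraries scaled by size alone. The fat of bull 5 is the library that stood apart above, and it had the highest summed level of 6 adipocyte markers, 24300 CPM against 6441 to 14008 CPM in the other fat samples, and of the smooth muscle markers, 1995 CPM against 365 to 1702 CPM. Cow 4 was inside both ranges, and the part of these markers in the values of bull 5 was not tested.

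**Figure D2:**
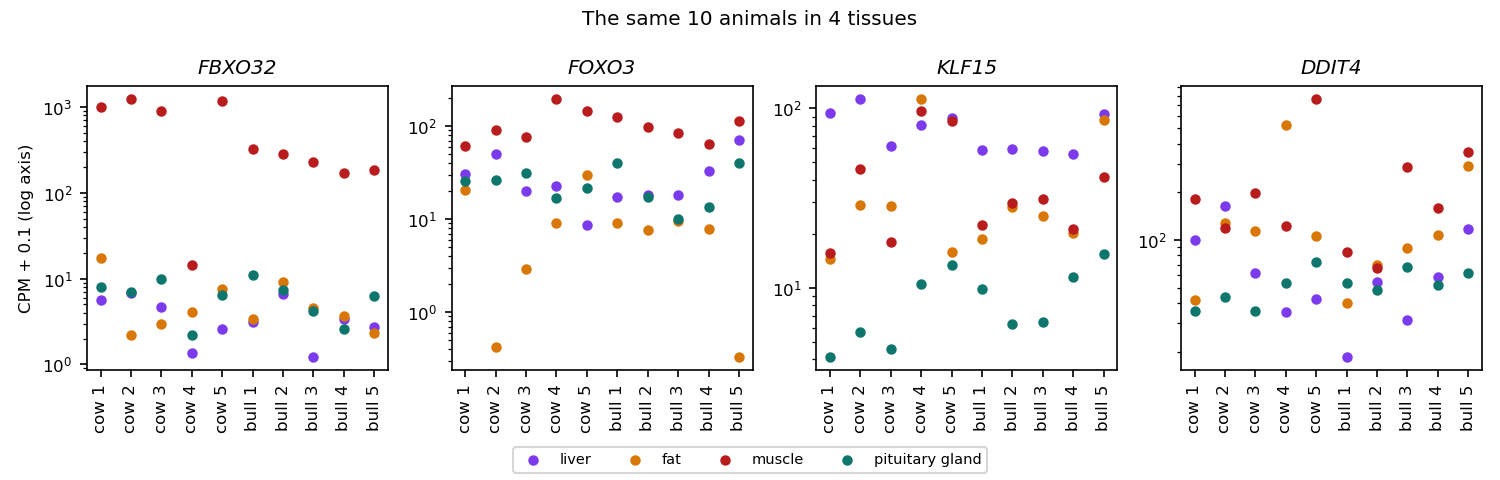
FBXO32, FOXO3, KLF15 and DDIT4 in the 4 tissues of each animal, as CPM + 0.1 on a log axis; each column is an animal and each colour a tissue. The muscle point of FBXO32 drops to 14.3 CPM in cow 4, the FOXO3 points of fat drop below 1 CPM in cow 2 and bull 5, and the KLF15 and DDIT4 points of fat are highest in cow 4 and bull 5.

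The next question was whether these genes are sexually dimorphic. With M1 (edgeR's likelihood ratio test, LRT), 0 of the 8 genes passed an FDR adjusted p of 0.05 in any tissue. Of all genes M1 called 0.517% in muscle, 0.745% in the pituitary gland, 0.175% in liver and 0.114% in fat. All calls given here come from M1 and M2 as refitted here. The study itself reported more called genes in muscle and in M2, and fewer in the pituitary gland. An unadjusted p under 0.05 in the LRT was seen for 2 of the 8 in muscle (FBXO32 and TRIM63), 0 in fat, 1 in liver and 3 in the pituitary gland, where 10.99%, 6.88%, 7.45% and 9.27% of all genes had one. With M2, 0 of the 8 passed, against 1.69% of all genes, and 1 (FBXO32) had an unadjusted p under 0.05, as did 16.7% of all genes. The interaction of sex and tissue called 0 of the 8, against 0.335% of all genes, and 3 had an unadjusted p under 0.05, as did 8.58% of all genes. The quasi-likelihood test and DESeq2 also called 0 of the 8 in each of these comparisons. Over all 13148 genes the quasi-likelihood test called 7 in muscle, 12 in the pituitary gland, 1 in liver and 3 in fat. It called 77 in M2 and 0 in the interaction, so its 0 of the 8 says little. DESeq2 called 89, 136, 20, 28, 263 and 39 genes in the same order. The values of females and males overlapped for all 8 genes in all 4 tissues. The share of all genes with such an overlap is not given here, so it was not read as a trait of the 8.

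Among the 8 genes, the largest sex difference in muscle was that of FBXO32. It measured 999, 1247, 893, 14.3 and 1183 CPM in the muscle of cows 1 to 5, and 329, 283, 230, 169 and 183 CPM in that of bulls 1 to 5. Of the cows, 4 were above every bull and cow 4 was below every bull. Over all 10 animals the male level was lower by 1.86 on the log2 scale (SE 0.64, unadjusted p = 0.00509, adjusted p = 0.198 in edgeR's LRT), which did not pass the threshold. The quasi-likelihood test gave an adjusted p of 0.396 and DESeq2 gave 0.273. Without cow 4, the remaining cows averaged 1080 ± 163 CPM (SD, n = 4) against 239 ± 67.3 CPM (SD, n = 5) in the bulls, and the log2 difference was -2.16 with an adjusted p of 6.63e-11. Leaving out cow 4 raised the calls over all genes as well, from 68 to 553 genes or 4.21% of those tested, and among the 8 genes it called FBXO32 and TRIM55. The adjusted p of FBXO32 stayed between 0.227 and 0.491 when any other single animal was left out.

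**Figure D3:**
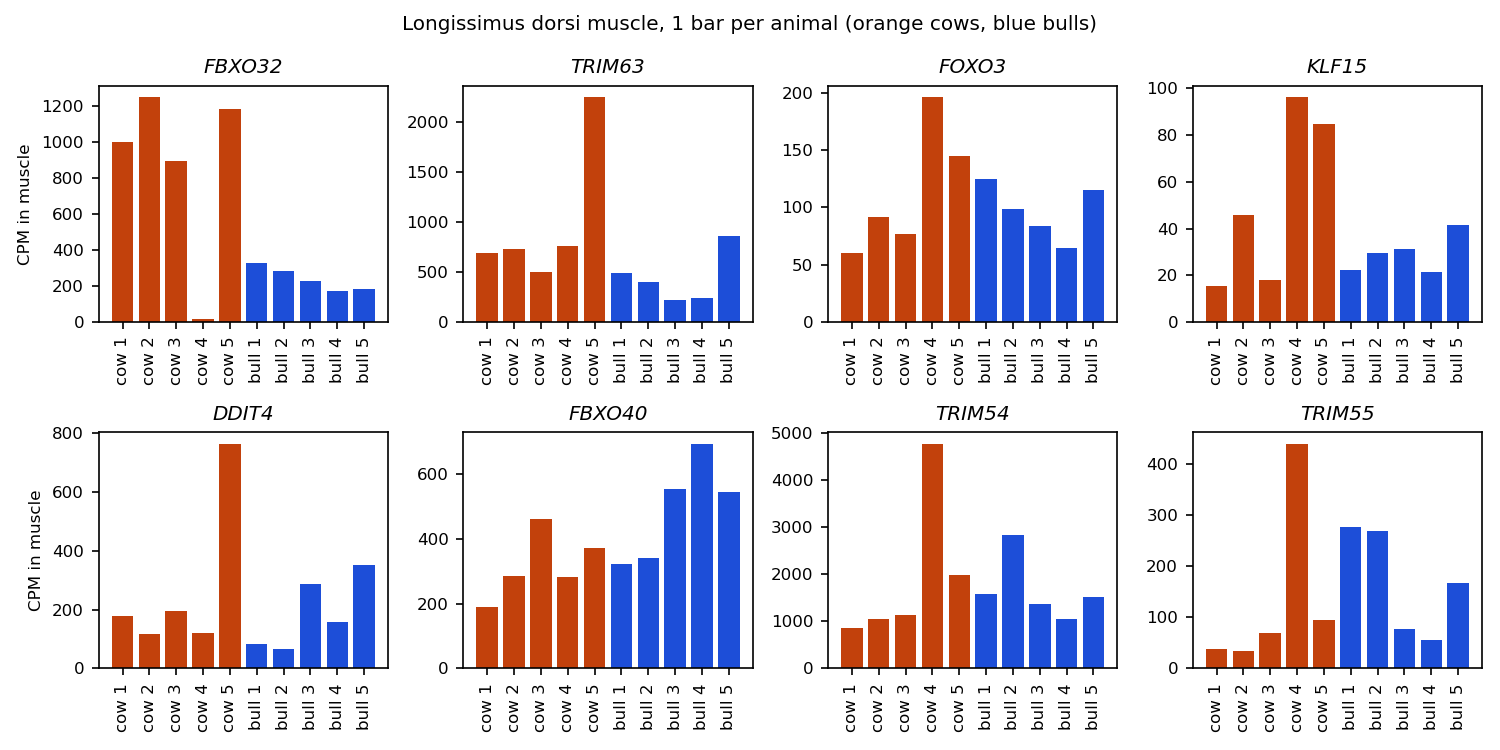
CPM of the 8 genes in the longissimus dorsi muscle, 1 bar per animal (orange for cows, blue for bulls), each panel on its own linear axis from 0. FBXO32 is at 14.3 CPM in cow 4 and at 893 to 1247 CPM in the other cows, while FOXO3, KLF15, TRIM54 and TRIM55 have their highest bar in cow 4; with libraries scaled by size alone, which the bars do not show, KLF15 was highest in cow 5.

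The low FBXO32 value of cow 4 rested on 97 reads, against 7033 to 14418 in the muscle of the other cows and 868 to 2697 in the bulls. The other cows averaged 75.4 times its level, and the lowest of the other 9 animals, bull 4, had 11.8 times its level. With libraries scaled by size alone these were 120 and 17.7 times. Among 8320 genes with a mean of at least 5 CPM in muscle, FBXO32 was the only one for which the next lowest animal had more than 10 times the level of cow 4, while 3 genes met this with library sizes alone. The muscle of bull 3 was as far below the rest for 7 genes (3 with library sizes alone) and the muscle of the other 8 animals for 0 under both scalings. Nothing in the totals set this library apart by depth, since 13062901 reads were counted on its genes. The share of reads without a gene name was 2.11% in it, 0.448% to 0.675% in the muscle of the other cows and 0.889% to 2.69% in the bulls. The share outside genes was 36.6% in it, the lowest of the cows, and 35.8% to 44.4% in the bulls. The part of both shares in the FBXO32 values was not tested. Its 9 muscle fibre markers summed to 169272 CPM, inside the range of the other animals (128431 to 209437 CPM).

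**Figure D4:**
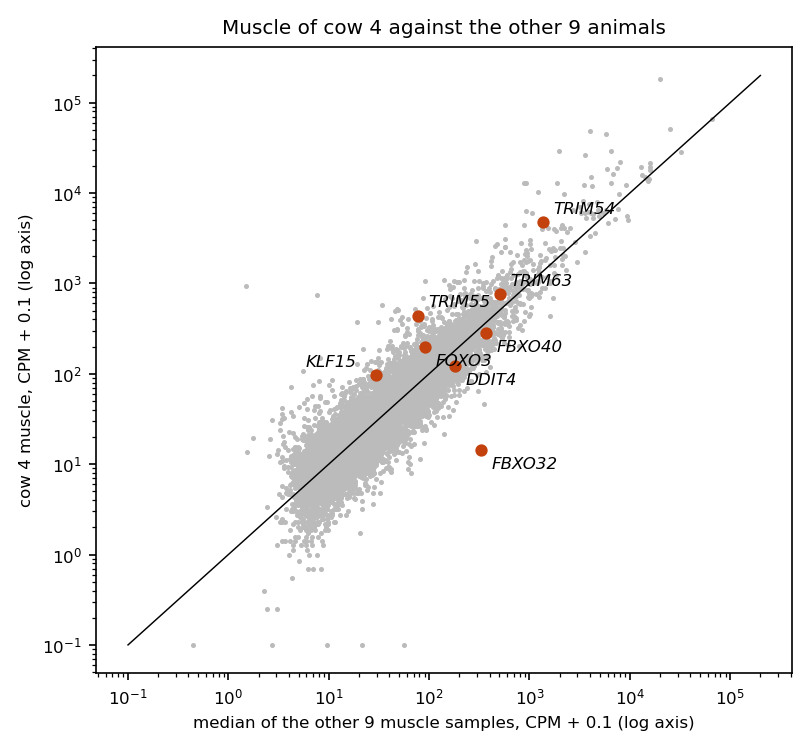
Muscle of cow 4 (y axis) against the median of the other 9 muscle samples (x axis) for 8320 genes, both as CPM + 0.1 on log axes; grey points are all genes, orange points are the 8 genes and the line marks equality. FBXO32 lies far below the line at 14.3 against 329 CPM, and TRIM55, TRIM54, KLF15 and FOXO3 lie above it on the TMM scale drawn here.

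The place of the other 7 genes in this muscle depended in part on the scaling, since with libraries scaled by size alone cow 4 was the lowest muscle sample for 41.5% and the highest for 6.20% of the 8320 genes, against 20.8% and 19.8% with TMM. Under both scalings TRIM63, at 757 CPM, and DDIT4, at 121 CPM, were inside the range of the other 9 animals. FBXO40 was inside that range at 283 CPM, but with library sizes alone it was the lowest, at 146 CPM against 172 to 543 CPM in the others. TRIM54 was highest in cow 4 at 4765 CPM against 852 to 2835 CPM, and TRIM55 at 439 CPM against 34.7 to 277 CPM, and both were highest with library sizes alone as well. FOXO3 was highest at 196 CPM against 60.3 to 145 CPM, and with library sizes alone by a small margin (102 CPM, against 96.5 CPM in cow 5). KLF15 was highest at 96.2 CPM against 15.6 to 84.8 CPM, but with library sizes alone it was 49.8 CPM in cow 4 and 56.5 CPM in cow 5. Cow 4 was thus the highest muscle sample for 4 of the 8 genes and the lowest for 1, or for 3 and 2 with library sizes alone. Its mean correlation with the other muscle samples, 0.952, was the lowest of the 10 animals, the highest being 0.972.

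FBXO32 was also low in other tissues of cow 4. In the pituitary gland the cows had 7.89, 6.95, 9.71, 2.11 and 6.29 CPM and the bulls had 11.1, 7.26, 4.12, 2.47 and 6.20 CPM, with cow 4 the lowest of the 10 at 27 reads. In liver the cows had 5.57, 6.74, 4.61, 1.26 and 2.46 CPM and the bulls had 3.003, 6.44, 1.13, 3.28 and 2.64 CPM. Cow 4 was the second lowest there at 9 reads, after the library labelled bull 3 at 7 reads. In fat cow 4 had 3.95 CPM and ranked 6th of 10 from the lowest. Outside muscle its values were close to those of other animals, and only in muscle was the gap as large as described.

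TRIM63 had the next largest sex difference in muscle among genes of the list. It measured 689, 728, 503, 757 and 2245 CPM in cows 1 to 5 and 490, 400, 223, 241 and 859 CPM in bulls 1 to 5. Of the bulls, 4 were below every cow, and bull 5 lay above 4 of the 5 cows. The log2 difference was -1.13 (SE 0.45, unadjusted p = 0.0130, adjusted p = 0.277 in the LRT), and it was -0.61 without cow 5. The muscle of cow 5 had the highest level of TRIM63 and of DDIT4 (763 CPM, against 66.8 to 352 CPM in the others). It also had the highest summed level of 6 adipocyte markers, 811 CPM against 52.9 to 296 CPM in the other muscle samples, and their part in these values was not tested. The summed level of 4 leukocyte markers in muscle was 30.0 to 150 CPM in cows and 17.5 to 65.3 CPM in bulls, and its part in the sex differences was not tested either.

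FBXO40 pointed the other way in muscle. It measured 189, 285, 462, 283 and 373 CPM in the cows and 322, 341, 553, 693 and 545 CPM in the bulls, a log2 difference of 0.64 (SE 0.33, adjusted p = 0.456). KLF15 measured 15.6, 46.0, 17.9, 96.2 and 84.8 CPM in the cows and 22.2, 29.7, 31.2, 21.2 and 41.6 CPM in the bulls, a difference of -0.80 (SE 0.45, adjusted p = 0.519). FOXO3, DDIT4, TRIM54 and TRIM55 had log2 differences of -0.49 to 0.33 in muscle, with adjusted p of 0.818 to 0.956. For TRIM55 this value turned on cow 4: the cows had 38.1, 34.7, 69.4, 439 and 94.8 CPM and the bulls had 277, 269, 77.0, 56.6 and 168 CPM. Without cow 4 the male level of TRIM55 was higher by 1.52 on the log2 scale (adjusted p = 0.0307), although bulls 3 and 4 still lay among the cows.

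**Figure D5:**
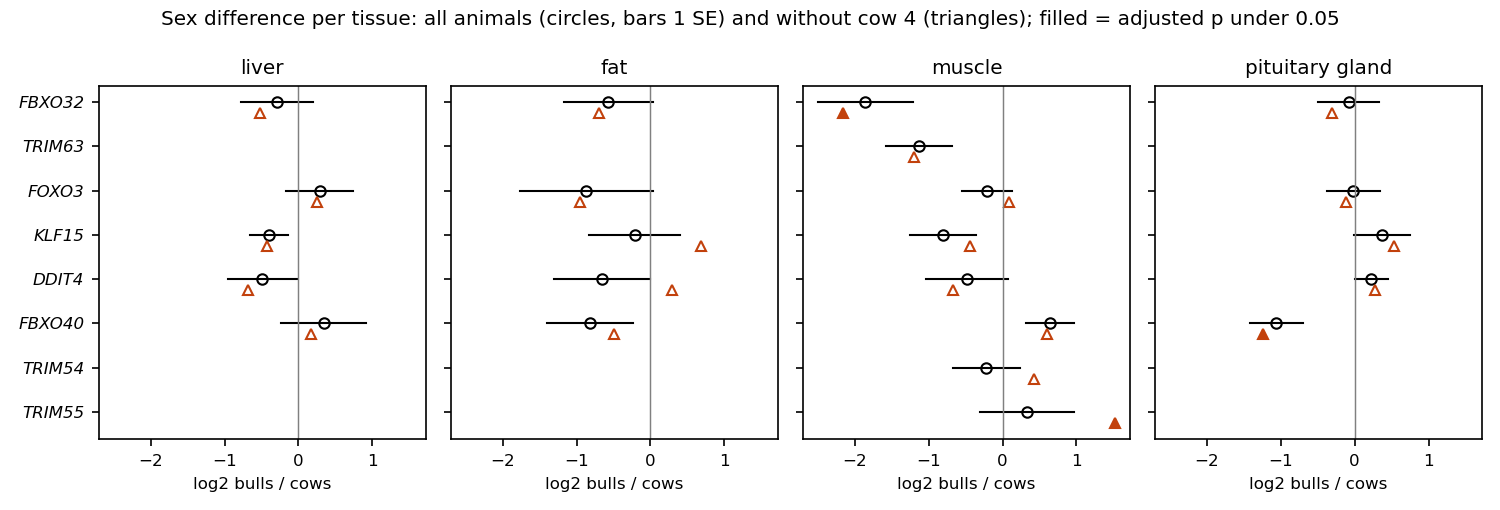
Log2 ratio of bulls to cows (x axis) for each gene and tissue under M1; circles with bars of 1 SE use all 10 animals, triangles leave out cow 4 and filled symbols have an adjusted p under 0.05. TRIM54, TRIM55 and TRIM63 are not drawn outside muscle because of their few reads; no circle is filled, and FBXO32 and TRIM55 in muscle and FBXO40 in the pituitary gland are filled without cow 4.

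In the pituitary gland, FBXO40 was the gene of the list with the most reads among those with an unadjusted p under 0.05. It measured 10.03, 9.36, 8.99, 3.197 and 4.51 CPM in the cows and 2.83, 3.53, 3.97, 2.07 and 4.83 CPM in the bulls. Cows 1 to 3 were above all bulls and cows 4 and 5 lay among them. The log2 difference was -1.06 (SE 0.36, adjusted p = 0.163 in the LRT). The summed level of the pituitary endocrine markers was 82770 to 125368 CPM in cows 1 to 3, 218883 and 265777 CPM in cows 4 and 5, and 143841 to 286052 CPM in the bulls. The share of reads outside genes was 46.7% to 52.1% in cows 1 to 3, 38.9% and 35.3% in cows 4 and 5, and 33.2% to 46.9% in the bulls, and the part of both measures in the FBXO40 values was not tested. Without cow 4 the log2 difference was -1.24 with an adjusted p of 0.0361, in a comparison that called 0.875% of all genes. TRIM54 had 3, 0, 0, 1 and 4 reads in the pituitary glands of the cows and 9, 11, 3, 4 and 12 in those of the bulls (adjusted p = 0.168), and it passed only without cow 5 (adjusted p = 0.0467), where 1.76% of all genes were called. TRIM55 had no read in any cow pituitary gland and 0, 5, 2, 1 and 2 reads in the bulls (adjusted p = 0.0946), so both sexes were near the smallest level that could be seen. The 9 muscle fibre markers summed to 10.8 to 35.9 CPM in the pituitary glands of cows and to 19.9 to 71.2 CPM in those of bulls. Their part in the TRIM54 and TRIM55 reads was not tested.

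In fat all 8 genes had a lower fitted level in males, with a median log2 difference of -0.67, while 53.8% of all genes were lower in males with a median of -0.06. None of the 8 differences passed the threshold, the adjusted p being 0.832 or more in the LRT. Without cow 4, KLF15 and DDIT4 had a higher fitted level in males. In liver 4 of the 8 genes were lower in males (median -0.0025, all genes 0 in the median). In muscle 6 of 8 were lower (median -0.35, all genes -0.04), and in the pituitary gland 3 of 8 (median 0.30, all genes 0). Outside muscle these directions and medians include TRIM63, TRIM54 and TRIM55, which had at most 14, 14 and 5 reads per sample. Over the 4 tissues in M2, FBXO32 was lower in males by 0.71 on the log2 scale (SE 0.30, unadjusted p = 0.0223, adjusted p = 0.214). Without cow 4 this was -0.97 with an adjusted p of 0.0116, when 5.22% of all genes were called. M2 treats the 4 libraries of an animal as independent samples. With the animal as a random block in limma voom, none of the 8 genes had an unadjusted p under 0.05 in M2 or in the interaction. Of all 13148 genes, 1215 had one in M2 and 1047 in the interaction.

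Among the 10 muscle samples, the levels of some of the genes varied together. The 28 pairs of the 8 genes were compared with Pearson's r of log2(CPM + 1) and permutation tests over the animals. TRIM54 and TRIM55 had r = 0.870 (permutation p = 5.80e-04, 0.0162 after Benjamini-Hochberg adjustment over the 28 pairs) and Spearman's rho = 0.927 (permutation p = 3.2e-04, adjusted 0.00896). FOXO3 and TRIM54 had r = 0.841 (permutation p = 0.00184, adjusted 0.0198) and rho = 0.855 (permutation p = 0.00276, adjusted 0.0386). FOXO3 and KLF15 had r = 0.843 (permutation p = 0.00212, adjusted 0.0198) and rho = 0.806 (permutation p = 0.00712, adjusted 0.0626). Without the 2 samples farthest from the median of the first gene, r was 0.750, 0.596 and 0.668. None of the 28 pairs passed without cow 4, without cow 1, or with libraries scaled by size alone. For the 3 pairs in the order given, r was 0.818, 0.702 and 0.746 without cow 4, and 0.776, 0.599 and 0.7995 with library sizes alone. FBXO32 and TRIM63, the pair most often measured together as markers of atrophy, had r = 0.252 (permutation p = 0.466, adjusted 0.687) and rho = 0.273 (permutation p = 0.450, adjusted 0.840), and r was 0.631 without cow 4.

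The genes most like FBXO32 over the 10 muscle samples, among 8320, were B2M (r = 0.936), UBQLN2 (0.935), HIST1H2BB (0.921), DDIT4L (0.915) and ANXA1 (0.911). B2M encodes the light chain of MHC class I molecules and UBQLN2 a ubiquitin-binding shuttle to the proteasome. These values lean on cow 4, the lowest sample of all 5 genes, and they were 0.777 to 0.893 without it. DDIT4L, a relative of DDIT4 and also an inhibitor of mTOR, measured 46.7 CPM in cow 4 and 135 to 913 CPM in the others. The genes most like TRIM63 were MNT (0.949), SLC7A8 (0.895), GNB1 (0.895), OTUD5 (0.887) and RGS14 (0.872). MNT is a transcriptional repressor of the MYC network and SLC7A8 an amino acid transporter. These 5 values were 0.885 to 0.954 without cow 4. All correlations in this paragraph describe 10 samples that share their sequencing and scaling.

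A further 100 genes of the pathway were examined in 8 lists. Muscle led for 42 of the 100, liver for 13, fat for 5 and the pituitary gland for 2. Over all genes tested these shares were 13%, 13.6%, 11.4% and 15.5%. The lists were drawn up around muscle breakdown, so the lead of muscle describes them, and no single list was tested. All 8 sarcomere partners of the MURF proteins, among them the Z-disc protein TCAP and the myosin-binding protein MYBPC1, were led by muscle. So were 9 of 19 other ubiquitin ligases and ubiquitin genes, among them FBXO30, CBLB and TRAF6. Muscle led for 6 of 17 other FOXO members and targets (FOXO4, CDKN1B, SESN1, DDIT4L, PDK4 and BCL6) and for 5 of 16 autophagy genes (MAP1LC3B, BNIP3, SQSTM1, ATG14 and TFEB). It led for 4 of 12 genes of insulin, AKT and mTOR signalling, 4 of 11 glucocorticoid genes including the receptor NR3C1, 5 of 10 genes of myostatin and activin signalling, and 1 of 8 KLF15 targets, the glucose transporter SLC2A4. Liver led for 2 KLF15 targets, ALDH6A1 and TAT, and fat for BCAT2 and PRODH.

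None of the 100 genes passed the threshold in muscle, fat or the pituitary gland by M1, or in the interaction. Of all genes 0.517%, 0.114%, 0.745% and 0.335% did, so 0 of 100 says little. An unadjusted p under 0.05 in edgeR's LRT was seen for 9, 7, 11 and 8 of the 100, beside 10.99%, 6.88%, 9.27% and 8.58% of all genes. In muscle the median log2 difference of a list ran from -0.13 for KLF15 targets to 0.16 for ubiquitin genes, beside -0.04 for all genes. The metallothionein MT2A had the largest difference of the glucocorticoid list, -2.18 on the log2 scale (SE 0.64, adjusted p = 0.0907), with 388 CPM in cow 2 and 10.2 to 93.1 CPM in the other animals. The autophagy kinase ULK1 measured 286 ± 75.6 CPM in cows and 163 ± 34.1 CPM in bulls (SD, n = 5 each; log2 difference -0.79, SE 0.28, adjusted p = 0.197). The gluconeogenic enzyme PCK1 had -1.23 (SE 0.44, adjusted p = 0.200) and the fast troponin TNNI2 had -0.94 (SE 0.36, adjusted p = 0.261). The ligase FBXO30 had -0.67 (SE 0.42, adjusted p = 0.588), RICTOR of the mTOR complex had 0.61 (SE 0.36, adjusted p = 0.538) and the amino acid enzyme BCAT2 had -0.76 (SE 0.39, adjusted p = 0.458).

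In liver INHBA, the activin A subunit, was the single gene of the 100 that passed M1, beside 0.175% of all genes. It measured 1.37, 1.33, 2.56, 11.2 and 1.64 CPM in the livers of the cows and 37.2, 10.2, 10.96, 50.3 and 35.3 CPM in those labelled as bulls. Cow 4 lay above bull 2 and above the library labelled bull 3. The log2 difference was 2.99 (SE 0.59, adjusted p = 0.00445 in the LRT), and it was 3.198 without that library (adjusted p = 3.203e-04). The quasi-likelihood test did not call it (adjusted p = 0.314), and it was not called in the LRT without cow 3 (adjusted p = 0.0640).

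With M2, 3 of the 100 genes passed, beside 1.69% of all genes. An unadjusted p under 0.05 in the LRT was seen for 15 of the 100, beside 16.7% of all genes. INHBA was higher in males by 1.46 (SE 0.35, adjusted p = 0.0183), and MSTN and CTSL1 were lower. MSTN encodes myostatin, which limits muscle growth, and was almost confined to muscle, with 16.4, 23.9, 21.2, 11.1 and 1.71 CPM in the cows and 6.60, 6.40, 7.14, 5.47 and 4.56 CPM in the bulls. The muscle of 4 cows was above every bull and cow 5 was below every bull. Its M2 difference was -1.38 on the log2 scale (SE 0.44, adjusted p = 0.0433), and the M1 difference in muscle was -1.31 (adjusted p = 0.254). CTSL1, a cathepsin L gene whose symbol the gene table gives to more than 1 current gene, had at most 4.58 CPM in any sample and a M2 difference of -1.07 (SE 0.30, adjusted p = 0.0325). With the animal as a block in limma voom, which called 8 of all 13148 genes, none of the 3 passed. The adjusted p of that fit was 0.0861 for INHBA, 0.490 for MSTN and 0.388 for CTSL1. The quasi-likelihood test of M2 called none of the 3 either, with adjusted p of 0.0506, 0.0841 and 0.0820 in that order. DESeq2 called INHBA and CTSL1 but not MSTN (adjusted p = 0.0600). Without cow 2 the LRT called none of the 3 (adjusted p = 0.105, 0.113 and 0.108).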

How the data were processed

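RNA-seq libraries of 4 tissues of 10 cattle were used, with sex, tissue and replicate number taken from the labels. Libraries of the same sex and replicate number were taken to come from the same animal, which was not tested. The authors removed adapters (Trimmomatic), mapped the reads with Tophat2 and Bowtie2 to bosTau7 of UCSC, and deposited raw read counts per gene made with HTSeq from uniquely aligned reads. The counting mode and strandedness are not given in the sources used here, so overlapping and antisense genes cannot be separated. The row without a gene name (0.114% to 2.69% of the reads) was left out. No genome or sequence of the build was used.

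M1 (sex, 10 samples of a tissue), M2 (sex and tissue, 40 samples) and their interaction were fitted in edgeR 4.0.16 (R 4.3.3) with TMM factors and the LRT, after the study's methods, with Benjamini-Hochberg adjustment over 13148 genes. Tissues were compared with the quasi-likelihood test, and their SE is the log2 difference divided by the root of F. A gene was led by a tissue if it was higher than in each other tissue at an adjusted p under 0.05. On simulated muscle counts with 200 genes changed by 1.5 on the log2 scale, the LRT of M1 recovered 71% and 17% of its calls were false. The quasi-likelihood test recovered 39.5% and 4.82% of its calls were false. Alternatives were the quasi-likelihood test, DESeq2 1.42.0, RLE factors, library sizes alone, filterByExpr, an animal block (limma 3.58.1 for M2 and the interaction), and leaving out each animal or both the liver labelled bull 3 and the fat of bull 5. Permutation tests of correlations used 100000 permutations, where 1e-05 is the smallest p they can give.

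Named were all 8 genes of the list, the list genes called in a sex comparison, at most 2 genes per list with the largest muscle difference at a mean of at least 5 CPM, and the 5 genes most correlated with FBXO32 and with TRIM63. Other genes are named where a count of genes led by a tissue is given. The members and lists were chosen with earlier results of these data known.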

Additional observations from a re-analysis of the deposited data

Results flagged for a closer look

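Dixon's ratio, the gap to the next sample over the range, was taken on CPM without a log scale. It covered 63 groups of 5 samples (8 genes, 4 tissues, 2 sexes, leaving out the group without a read). For normally distributed values chance exceeds the critical value of 0.71 in about 1 in 20 groups. That rate need not hold for CPM or for few reads. In 13 groups the highest or lowest sample exceeded the critical value. The share of such groups over all genes is not given here, so the count was not read as a trait of the 8 genes. In muscle these were cow 4 as the lowest for FBXO32 (14.3 CPM) and the highest for TRIM54 (4765 CPM) and TRIM55 (439 CPM), and cow 5 as the highest for TRIM63 (2245 CPM) and DDIT4 (763 CPM). In fat they were cow 4 as the highest for KLF15 (113 CPM) and DDIT4 (525 CPM), bull 5 as the highest for KLF15 (86.3 CPM) and DDIT4 (290 CPM) and the lowest for FOXO3 (0.232 CPM), and cow 5 as the highest for TRIM63 (1.10 CPM). In liver they were bull 5 as the highest for KLF15 (93.1 CPM) and cow 1 as the highest for TRIM55 (0.0808 CPM, a single read). Cow 4, cow 5 and bull 5 hold 12 of the 13, and genes measured in the same library share its sequencing, so these values are not independent.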

How the results depend on the processing

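The 6 genes led by muscle were the same 6 under every alternative run, with DDIT4 added without cow 4, and also with the animal as a fixed block (6 genes). Leaving out each animal in turn moved the number of the 8 genes called from 0 to 2 in muscle, from 0 to 1 in the pituitary gland and from 0 to 1 in M2, and the number of correlated pairs in muscle ran from 0 to 5. With library sizes alone 0 pairs passed. The replicate block for M2 and the interaction paired the 4 libraries of an animal (correlation 0.104 and 0.112) and called 0 of the 8 genes in both. The same number in a cow and a bull marks different animals and pairs nothing. Over all genes, M1 in muscle called 68 genes, the quasi-likelihood test 7, and the LRT 25 to 553 with an animal left out. M1 called 23 genes in liver, 15 in fat and 98 in the pituitary gland, and the quasi-likelihood test 1, 3 and 12. For M2 the counts were 222 genes, 77 with the quasi-likelihood test, 717 with library sizes alone and 8 with the block, and for the interaction 44, 0, 33 and 13. DESeq2 called 28 genes in fat, and filterByExpr left 13 in liver and 6 in fat. Library sizes alone left 56 in the pituitary gland. Without the liver labelled bull 3 and the fat of bull 5 the interaction called 80 genes. With an animal left out the counts ran from 10 to 187 in liver, 5 to 22 in fat, 54 to 231 in the pituitary gland, 57 to 714 in M2 and 9 to 197 in the interaction. The split into genes higher and lower in males was 44 and 178 in M2, 37 and 680 with library sizes alone, and in the pituitary gland 73 and 25, against 32 and 24. Apart from leaving out cow 4 or cow 5, each of these alternatives called 0 of the 8 genes. Genes led by muscle over all genes fell from 1705 to 828 with library sizes alone, and those led by liver, fat and the pituitary gland moved from 1785, 1498 and 2033 to 1107, 2232 and 3238. TRIM54, TRIM55 and TRIM63 outside muscle are limited by their few reads.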

Other observations

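The following values were chosen after they were seen. In fat, TSC22D3 and CDKN1A were also highest in cow 4 and bull 5, the samples with the most KLF15 and DDIT4. These were 2 single genes: of the 10 genes of the glucocorticoid list with a mean of at least 5 CPM in fat, TSC22D3 alone had both animals in its first 2 places, beside 7.54% of all 8440 such genes. TSC22D3, which encodes the glucocorticoid-induced leucine zipper GILZ, measured 378 CPM in cow 4 and 578 CPM in bull 5, against 125 to 274 CPM in the fat of the other 8 animals. The cell cycle inhibitor CDKN1A measured 494 and 544 CPM, against 52.0 to 175 CPM. FKBP5, a glucocorticoid-induced chaperone of the receptor, was highest in cow 4 at 1218 CPM but was 535 CPM in bull 5, inside the range of the others. The metallothionein MT2A was highest in bull 5 at 520 CPM, while cow 4, at 73.4 CPM, lay below bull 1 at 251 CPM, cow 2 at 92.2 CPM and bull 4 at 77.1 CPM.

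In the muscle of cow 5 TRIM63 and DDIT4 were highest. TSC22D3 (581 CPM), FKBP5 (2377 CPM) and PDK4 (13599.7 CPM), an inhibitor of pyruvate use, were the highest of the 10 muscle samples there as well. MSTN was the lowest there at 1.71 CPM. Over the 8320 genes cow 5 was highest for 10.3% and lowest for 4.06%. Other genes of the same lists were highest elsewhere, such as MT2A in cow 2 (388 CPM, against 93.1 CPM in cow 5) and DDIT4L in cow 3 (913 CPM). In the muscle of cow 4, CDKN1A reached 1068 CPM against 31.3 to 325 CPM in the others. Of 7 KLF15 targets with a mean of at least 5 CPM in muscle, 6 were highest in cow 4, and of 15 autophagy genes 7 were lowest in it, beside 19.8% highest and 20.8% lowest over all genes. With libraries scaled by size alone 1 of the 7 (SLC2A4) was highest and 9 of the 15 were lowest, beside 6.20% and 41.5% of all genes, while CDKN1A remained the highest in cow 4.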
